A study of Homo sapiens with 24 samples.

Results

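Phosphatidylcholine is the main phospholipid of most human membranes, and 8 genes of its synthesis are described here: SLC44A1, SLC44A2, CHKA, CHKB, PCYT1A, PCYT1B, CHPT1 and PEMT. They were chosen by name for their place in the pathway, but with earlier results of these data already known. All 8 were found among the 25343 genes listed in each library. RNA sequencing had been done on A375, a human melanoma line, and HCT116, a human colon cancer line. For each line there were 3 libraries of each of 4 groups, namely a PTDSS2 knockout clone with DS07551382, that clone with DMSO, the parent with DS07551382 and the parent with DMSO, which makes 24 libraries in all. DS07551382 is an inhibitor of PTDSS1 and was used at 0.1 µM for 24 h, and DMSO was its vehicle. The knockout was a single clone in each line (PTDSS2-KO#54 in A375 and PTDSS2-KO#3 in HCT116), so the lost gene and the clone cannot be told apart. The parents are described in the labels as wild type.

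Cells make most of their phosphatidylcholine by the CDP-choline (Kennedy) route. Choline enters through transporters such as SLC44A1 and SLC44A2, is phosphorylated by the choline kinases CHKA and CHKB, is activated by the cytidylyl transferases PCYT1A and PCYT1B in the step that usually sets the rate of the pathway, and is joined to diacylglycerol by CHPT1 in the Golgi or by the related enzyme CEPT1. PEMT makes phosphatidylcholine another way, by methylating phosphatidylethanolamine, a route best known from liver. The pathway meets the design of the study at phosphatidylserine: PTDSS1 makes it from phosphatidylcholine and releases choline, whereas PTDSS2 makes it from phosphatidylethanolamine.

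Promoter sequences from RefSeq were matched by symbol for 7 of the 8 genes, in the build GRCh38.p14. The files themselves rest on hg19, so these coordinates were not joined to any measurement. Each run below is the 250 bases before a start, 5′ to 3′ on the strand of the gene, and capitals mark a GC box (GGGCGG on either strand) or a CCAAT box (CCAAT on either strand), with overlapping matches all marked. CHPT1 is shown for having the largest called difference between genotypes, on chr12:101697390-101697639 (+ strand). SLC44A2 is shown with both of its listed starts because its mean transcript length differed between the lines, on chr19:10602205-10602454 and chr19:10625303-10625552 (+ strand). CHKB is shown for its read-through partner, described with the kinases, on chr22:50582850-50583099 (− strand).
CHPT1: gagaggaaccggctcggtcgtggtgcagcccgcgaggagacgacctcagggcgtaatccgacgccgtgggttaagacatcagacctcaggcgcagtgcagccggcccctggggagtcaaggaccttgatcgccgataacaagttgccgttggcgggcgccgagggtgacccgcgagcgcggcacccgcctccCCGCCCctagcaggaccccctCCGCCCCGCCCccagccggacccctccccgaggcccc
SLC44A2, first start: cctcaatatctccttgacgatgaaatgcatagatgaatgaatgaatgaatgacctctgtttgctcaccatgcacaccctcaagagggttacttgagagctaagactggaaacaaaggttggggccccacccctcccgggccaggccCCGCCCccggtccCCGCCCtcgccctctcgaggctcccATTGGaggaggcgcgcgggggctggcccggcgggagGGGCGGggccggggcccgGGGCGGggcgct
SLC44A2, second start: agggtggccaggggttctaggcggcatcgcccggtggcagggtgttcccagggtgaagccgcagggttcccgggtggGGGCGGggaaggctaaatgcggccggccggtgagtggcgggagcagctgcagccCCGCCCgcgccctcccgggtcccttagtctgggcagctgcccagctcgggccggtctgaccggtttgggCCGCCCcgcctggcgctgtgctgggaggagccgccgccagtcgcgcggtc
CHKB: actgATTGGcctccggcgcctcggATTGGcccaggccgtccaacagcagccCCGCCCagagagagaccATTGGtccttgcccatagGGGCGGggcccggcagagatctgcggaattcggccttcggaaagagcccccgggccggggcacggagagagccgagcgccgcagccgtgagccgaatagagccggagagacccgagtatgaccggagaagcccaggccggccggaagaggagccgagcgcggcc
The CHPT1 window held 3 GC boxes and 0 CCAAT boxes. At the first start of SLC44A2 there were 4 GC boxes and 1 CCAAT box, and at the second start 3 GC boxes and 0 CCAAT boxes. The CHKB window held 2 GC boxes and 3 CCAAT boxes. Both motifs are common, since 42.5% of 34943 RefSeq promoter windows of this length held a GC box and 32.0% a CCAAT box. These 4 windows were rich in G and C, with 72.0% for CHPT1, 65.6% and 75.2% for the starts of SLC44A2 and 70.0% for CHKB, against a median of 58.0% over all windows. A match to TGATGCAA, TGACTCA or TGACGTCA, searched on both strands, was in none of the 11 windows of the 7 genes. Those motifs were in 0.776%, 4.22% and 1.63% of all windows. The motif CACGTG, in 6.32% of all windows, had a single match among the 11, at the third start of PEMT.

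Each library held between 6.21 and 11.69 times 1000000 counts (median 9.20). The lowest group mean was that of inhibitor-treated HCT116 knockout cells, at 6.89 ± 0.901 times 1000000 (SD, n = 3). Of 10 melanocyte genes, 5 averaged at least 1 TPM (transcripts per 1000000, a level scaled for transcript length) in A375, among them MITF, SOX10 and S100B, while TYR was at 0. Of 12 colon epithelium genes, 6 averaged at least 1 TPM in HCT116, among them EPCAM, CDX2 and CDH1, while CDX1 was at 0. PTDSS2 averaged 0.727 ± 0.123 TPM in the A375 knockout and 19.7 ± 0.895 TPM in the A375 parent with vehicle, and 5.48 ± 1.05 TPM in the HCT116 knockout and 30.1 ± 2.26 TPM in the HCT116 parent (SD, n = 3 each), so the libraries labelled knockout were the low ones. Because the libraries are bulk RNA, fewer cells with an RNA and less of it per cell cannot be told apart. The summed colon genes ran from 3320 to 3410 TPM in the HCT116 knockout with inhibitor and from 3870 to 4040 TPM with vehicle. The summed melanocyte genes ran from 504 to 558 TPM in the A375 knockout with inhibitor and from 391 to 419 TPM with vehicle. In the A375 parent they ran from 466 to 499 TPM with inhibitor and from 499 to 509 TPM with vehicle, so the knockout with vehicle was the group that stood apart. Their part in the differences below was not tested.

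The order of the 8 RNAs differed between the lines. In A375 parent cells with vehicle, CHPT1 was the highest at 111.5 ± 4.81 TPM, followed by PEMT at 61.8 ± 4.45, PCYT1A at 47.6 ± 2.14, SLC44A2 at 31.6 ± 0.486, CHKA at 24.4 ± 1.40, SLC44A1 at 22.2 ± 0.0252, CHKB at 5.99 ± 4.98 and PCYT1B at 1.90 ± 0.229 TPM (SD, n = 3). Each neighbour in that order was apart from the next beyond the range of its libraries, except CHKB and PCYT1B, which overlapped. In HCT116 parent cells with vehicle the order was SLC44A2 at 52.8 ± 0.771, PCYT1A at 40.6 ± 2.65, PEMT at 36.4 ± 3.87, CHKA at 32.4 ± 3.16, CHPT1 at 25.0 ± 1.2, SLC44A1 at 18.5 ± 0.376, CHKB at 16.5 ± 3.70 and PCYT1B at 0 TPM (SD, n = 3). There PCYT1A, PEMT and CHKA overlapped with their neighbours, as did SLC44A1 with CHKB. CEPT1, the other enzyme of the last step, was at 26.9 ± 2.33 TPM in A375 and 41.7 ± 1.57 TPM in HCT116. The highest RNA of the pathway was thus the Golgi terminal enzyme in A375 and a choline transporter in HCT116, as the plot of TPM by library shows.

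**Figure D1:**
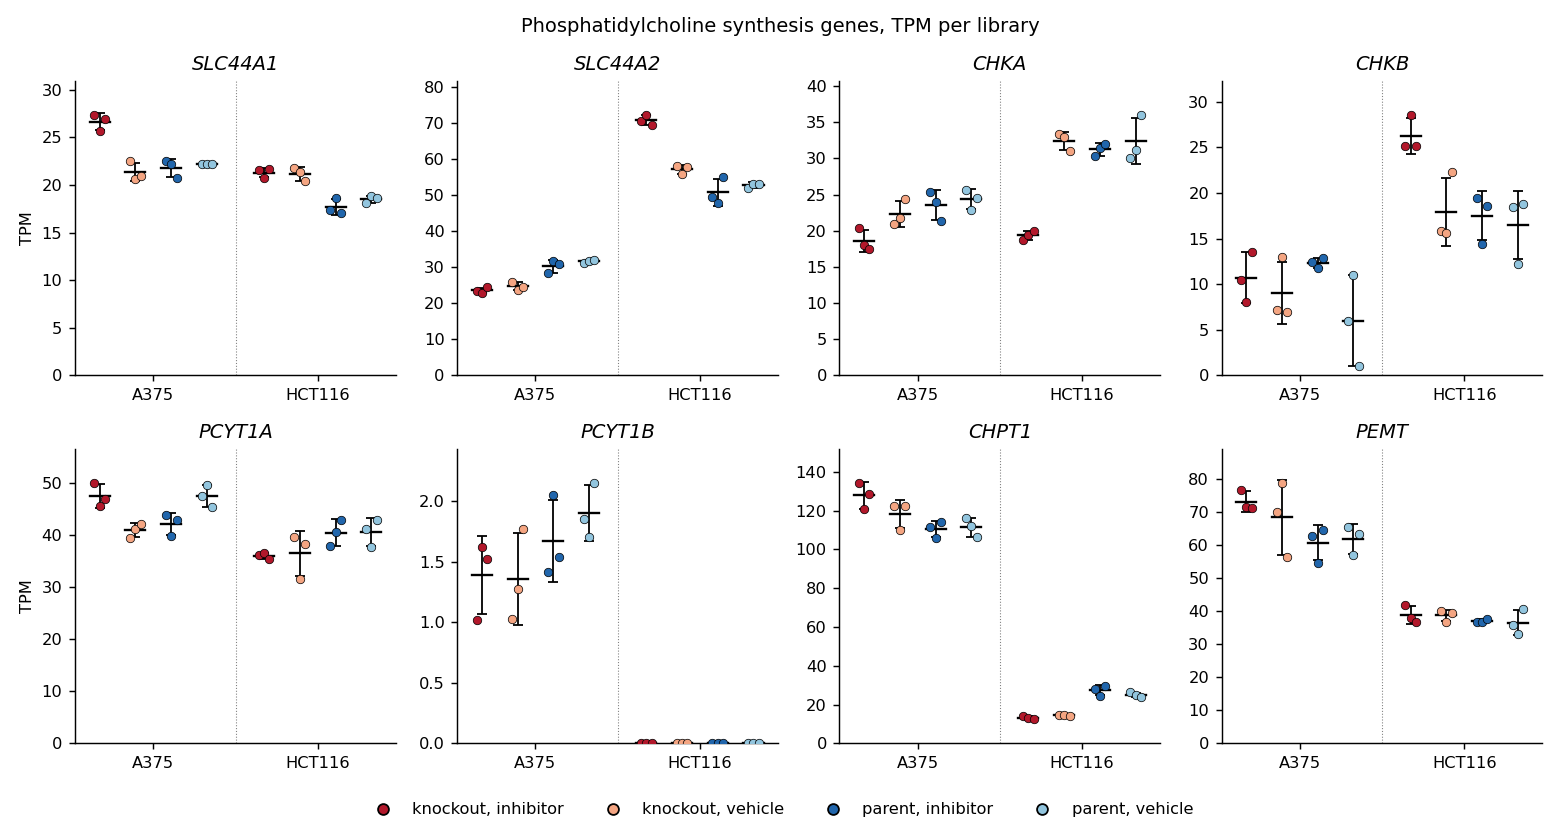
TPM of the 8 genes in each library (points), with the group mean and SD (line and bar, n = 3), for A375 on the left of each panel and HCT116 on the right. CHKA is lowest in the knockouts with inhibitor, SLC44A1 is highest in the A375 knockout with inhibitor, SLC44A2 in the HCT116 knockout with inhibitor, and CHPT1 is low in both groups of the HCT116 knockout.

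Differences were tested with edgeR's quasi-likelihood test on the estimated counts, over every gene that passed a filter on low counts, and a gene is said to have risen or fallen where its Benjamini-Hochberg adjusted p was under 0.05. A log2 fold change is given with its standard error, from 3 libraries in each group. All 8 genes passed the filter in A375, and 7 did in HCT116, where PCYT1B had 0 counts in all 12 libraries. With the inhibitor, 3 of the 8 changed in the A375 knockout, where 37.5% of all genes tested were called, and 3 of 7 changed in the HCT116 knockout, where 37.1% were called. Those shares are near the background, so the counts are not a result about these genes as a set. Their median log2 fold change was 0.08 in the A375 knockout and 0.01 in the HCT116 knockout, against 0.01 and 0.00 over all genes tested. In A375, SLC44A1 and PCYT1A rose, where 18.7% of all genes did, and CHKA fell, where 18.8% did. In HCT116, SLC44A2 and CHKB rose, where 17.1% did, and CHKA fell, where 20.1% did. CHKA was thus the sole gene of the 8 called in both knockouts, and in the same direction. The share of all genes called in both is not given here, so that overlap was not set against the background.

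In the parents edgeR called 0 of the 8 genes with the inhibitor in A375, where 0.104% of all genes were called, and 0 of 7 in HCT116, where 0.0% were. PCYT1A in the A375 parent was the one gene of the set with an unadjusted p under 0.05, at a log2 fold change of -0.16 ± 0.073 and an adjusted p of 0.738. Over all genes, edgeR called 14 in the A375 parent with 884 at an unadjusted p under 0.05, and 0 in the HCT116 parent with 530. For the HCT116 parent DESeq2 called 1 gene and limma-voom 0, and for the A375 parent they called 15 and 13. Apart from CHKB in A375, whose value was 1.08 ± 0.525, the effects in the parents lay between -0.18 and 0.14 on the log2 scale. None of the alternatives run called any of the 8 genes in a parent.

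**Figure D2:**
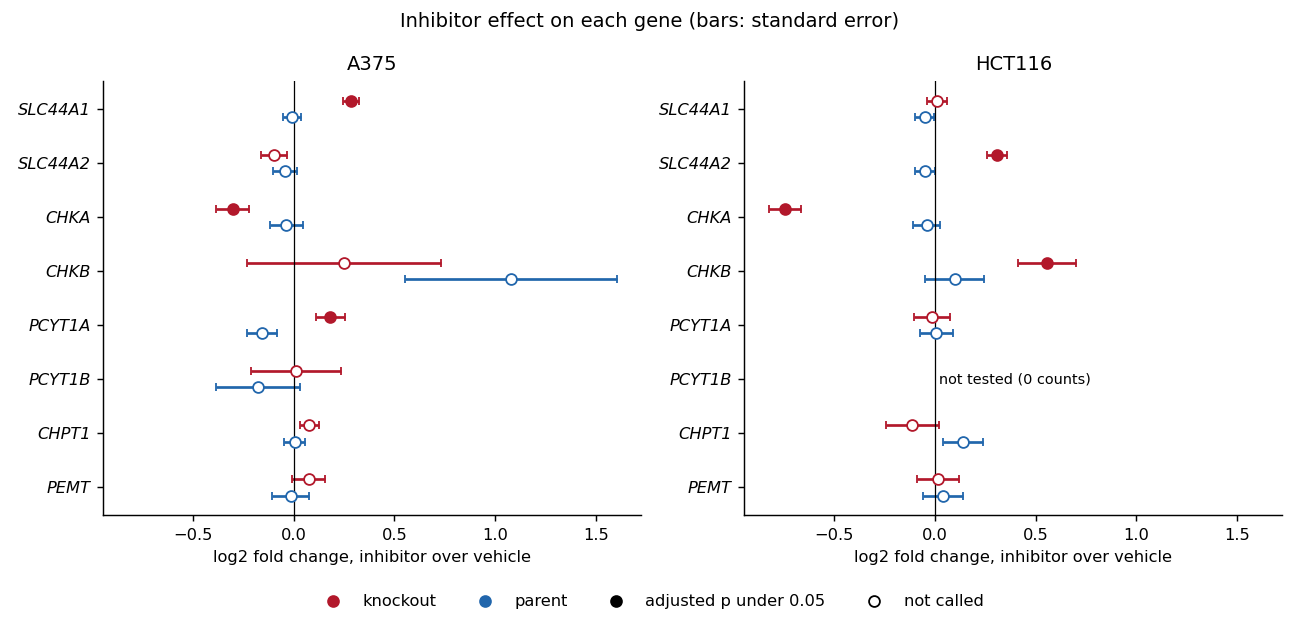
Log2 fold change of each gene, inhibitor over vehicle, with its standard error, in the knockout (red) and the parent (blue) of A375 (left) and HCT116 (right); filled points passed the test. The filled points are CHKA, SLC44A1 and PCYT1A in the A375 knockout and CHKA, CHKB and SLC44A2 in the HCT116 knockout, and no point of a parent is filled.

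Of the choline transporters, a different one rose in each knockout. SLC44A1 is a widely expressed choline transporter of the plasma membrane and mitochondria. In the A375 knockout it stood at 27.4, 25.7 and 26.9 TPM with inhibitor, against 22.5, 20.6 and 21.0 TPM with vehicle. All 3 inhibitor libraries were above all 3 vehicle libraries, with a log2 fold change of 0.29 ± 0.041 (edgeR, adjusted p = 5.743e-08). The A375 parent showed no such shift, at 22.5, 22.2 and 20.8 TPM with inhibitor and 22.2, 22.2 and 22.2 TPM with vehicle. The knockout effect less the parent effect was 0.29 ± 0.060 on the log2 scale (edgeR, adjusted p = 9.528e-05), a comparison in which 27.3% of all genes were called. SLC44A1 in the HCT116 knockout was at 21.5, 20.7 and 21.7 TPM with inhibitor and 21.8, 21.4 and 20.4 TPM with vehicle, and the groups overlapped (log2 fold change 0.01 ± 0.049). Between the knockouts, A375 minus HCT116 gave 0.28 ± 0.065 (edgeR, adjusted p = 0.0004772), where 19.7% of all genes were called.

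SLC44A2, known for choline transport in platelets and mitochondria, moved in the other line. In the A375 knockout it was at 23.5, 22.9 and 24.4 TPM with inhibitor and 25.8, 23.6 and 24.6 TPM with vehicle, a log2 fold change of -0.10 ± 0.065 that did not pass. In the HCT116 knockout it was at 70.7, 72.3 and 69.55 TPM with inhibitor, against 58.2, 55.8 and 57.7 TPM with vehicle. Those groups were well apart, and SLC44A2 rose by 0.31 ± 0.049 on the log2 scale (edgeR, adjusted p = 4.074e-07). The HCT116 parent was at 49.5, 47.9 and 54.9 TPM with inhibitor and 51.9, 53.2 and 53.2 TPM with vehicle, which overlapped. Taking the parent effect from the knockout effect left 0.36 ± 0.070 (edgeR, adjusted p = 4.932e-05), where 24.9% of all genes were called. A375 minus HCT116 gave -0.40 ± 0.080 for the knockouts (edgeR, adjusted p = 4.362e-05).

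The balance of the pair shifted in opposite directions in the lines, read as the share of SLC44A1 in their summed TPM. It was 53.0 ± 0.722% in the A375 knockout with inhibitor and 46.4 ± 0.357% with vehicle (SD, n = 3 each). In the HCT116 knockout it was 23.1 ± 0.751% with inhibitor and 27.0 ± 0.804% with vehicle. The log2 ratio of SLC44A1 over SLC44A2 changed by 0.38 in the A375 knockout and by -0.30 in the HCT116 knockout, each with groups that did not overlap (two-sided exact permutation p = 0.1, the smallest that 3 against 3 libraries allow). These ratios rest on the same libraries as the tests of the single genes.

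The transporters also differed by genotype without inhibitor. In vehicle, SLC44A2 was at 25.8, 23.6 and 24.6 TPM in the A375 knockout, against 31.1, 31.7 and 32.1 TPM in the A375 parent. It fell by 0.32 ± 0.064 on the log2 scale (edgeR, adjusted p = 0.0001399), the only call among the 8 genes for genotype in A375, where 16.3% of all genes were called. The summed melanocyte genes also differed between those groups, at 391 to 419 TPM in the knockout and 499 to 509 TPM in the parent, and their part in the call was not tested. In HCT116, 3 of 7 genes were called for genotype, where 21.3% of all genes were. SLC44A1 there was at 21.8, 21.4 and 20.4 TPM in the knockout, against 18.1, 18.8 and 18.6 TPM in the parent, and rose by 0.21 ± 0.048 (edgeR, adjusted p = 0.0004344). SLC44A2 rose by 0.14 ± 0.049 in the HCT116 knockout (edgeR, adjusted p = 0.03518). That call was lost with DESeq2 and without each of the 6 libraries compared in turn, with adjusted p from 0.0281 to 0.1118 over all alternatives.

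The mean transcript length of SLC44A2, which the deposited length column weights by isoform, also separated the lines. It ran from 3379 to 3400 bases in the 12 A375 libraries and from 3421 to 3434 bases in the 12 HCT116 libraries, with medians of 3391 and 3432. The ranges did not overlap. For CHKB, PCYT1A and CHPT1 the length was the same in every library.

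The largest fold change called for the inhibitor among the 8 genes was that of a choline kinase, CHKA, the one often raised in tumours. It fell in both knockouts and more in HCT116. In the A375 knockout it was at 20.3, 18.0 and 17.45 TPM with inhibitor, against 20.9, 21.8 and 24.3 TPM with vehicle. The libraries with inhibitor were all below those with vehicle, though the nearest pair was close, and CHKA fell by 0.30 ± 0.083 on the log2 scale (edgeR, adjusted p = 0.002579). Without vehicle replicate 3 of that knockout, which was the highest of the 6, the value was -0.23 with an adjusted p of 0.05424 by edgeR. The A375 parent overlapped, at 25.4, 23.9 and 21.4 TPM with inhibitor and 25.7, 22.9 and 24.5 TPM with vehicle. Here the knockout effect less the parent effect was -0.27 ± 0.116 and did not pass (edgeR, adjusted p = 0.08131), so a response particular to the A375 knockout was not shown.

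CHKA in the HCT116 knockout stood at 18.7, 19.4 and 20.0 TPM with inhibitor, against 33.35, 33.0 and 31.0 TPM with vehicle. The groups were far apart, and CHKA fell by 0.74 ± 0.079 (edgeR, adjusted p = 4.024e-12). The HCT116 parent was at 30.3, 31.5 and 31.9 TPM with inhibitor and 30.1, 31.1 and 36.0 TPM with vehicle, so its groups overlapped. The knockout effect less the parent effect was -0.70 ± 0.105 (edgeR, adjusted p = 2.19e-07). Between the knockouts, A375 minus HCT116 gave 0.45 ± 0.116 (edgeR, adjusted p = 0.002219). In vehicle, CHKA did not pass the test for genotype, with log2 differences of -0.09 ± 0.083 in A375 and 0.03 ± 0.068 in HCT116.

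CHKB, the second choline kinase, must be read with its neighbour. The annotation also holds CHKB-CPT1B, a read-through gene that runs from CHKB into CPT1B, and RSEM shares out reads that match both. In 5 of the 8 groups the library lowest in CHKB by TPM was the highest in the read-through. Neither group of the HCT116 knockout was among those 5, but in each the library highest in CHKB was the lowest in the read-through. With inhibitor, the lowest values of CHKB there were 25.11 and 25.12 TPM, nearly a tie. By counts, replicate 3 of that group was lowest in CHKB (123.6) and highest in the read-through (72.98). In A375 the values of CHKB scattered widely. The A375 knockout had 10.5, 8.02 and 13.6 TPM with inhibitor and 7.17, 12.95 and 6.91 TPM with vehicle (log2 fold change 0.25 ± 0.482, not called). The A375 parent had 12.5, 11.75 and 12.9 TPM with inhibitor and 5.92, 11.0 and 1.04 TPM with vehicle. In that last group CHKB-CPT1B read 6.27, 0 and 6.97 TPM, and the sum of the pair was less scattered, at 12.2, 11.0 and 8.01 TPM.

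CHKB in the HCT116 knockout was at 25.1, 28.6 and 25.1 TPM with inhibitor, against 15.8, 15.7 and 22.3 TPM with vehicle. These did not overlap, and CHKB rose by 0.56 ± 0.143 (edgeR, adjusted p = 0.00268). The read-through was at 1.59, 0.16 and 5.49 TPM in the same inhibitor libraries and 6.50, 4.22 and 2.52 TPM in the vehicle libraries. Summed over the pair, TPM was 26.7, 28.7 and 30.6 with inhibitor and 22.3, 19.9 and 24.8 with vehicle, which did not overlap either. When the counts of the pair were summed and fitted as a single gene, an alternative chosen after seeing the data, the log2 fold change was 0.13 ± 0.151 and was not called (edgeR, adjusted p = 0.5608), which left 2 of the 7 genes called in HCT116. A sum of counts gives the longer read-through more weight than a sum of TPM does. The effect in the HCT116 knockout was also not shown to differ from that in the parent, with a difference of 0.46 ± 0.206 (edgeR, adjusted p = 0.1064).

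The balance of the kinases can be read as the share of CHKA in the summed TPM of CHKA and CHKB. In the A375 knockout it was 63.8 ± 6.73% with inhibitor and 71.7 ± 7.96% with vehicle, and the groups overlapped (SD, n = 3 each). In the HCT116 knockout it was 42.5 ± 1.92% with inhibitor, against 64.6 ± 5.56% with vehicle. The A375 parent was at 65.5 ± 2.67% with inhibitor and 81.6 ± 14.2% with vehicle, and the HCT116 parent at 64.2 ± 3.96% with inhibitor and 66.5 ± 4.96% with vehicle. With the read-through added to CHKB, the share of CHKA was 40.3 ± 0.822% in the HCT116 knockout with inhibitor and 59.3 ± 3.46% with vehicle. The log2 ratio of CHKA over CHKB differed by -1.31 between those groups, or by -1.10 with the read-through, in both cases with no overlap (two-sided exact permutation p = 0.1, the smallest possible). A lack of overlap was not confined to that knockout. In the A375 parent the same log2 ratio differed by -1.61, also with no overlap (two-sided exact permutation p = 0.1). The nearest libraries there were at 1.02 with inhibitor and 1.05 with vehicle, and edgeR called neither kinase in that parent. The difference of -1.61 became -0.65 without vehicle replicate 3, where CHKB was at 1.04 TPM, and -0.36 with the read-through added. The plot of the kinases shows CHKB and the read-through side by side.

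**Figure D3:**
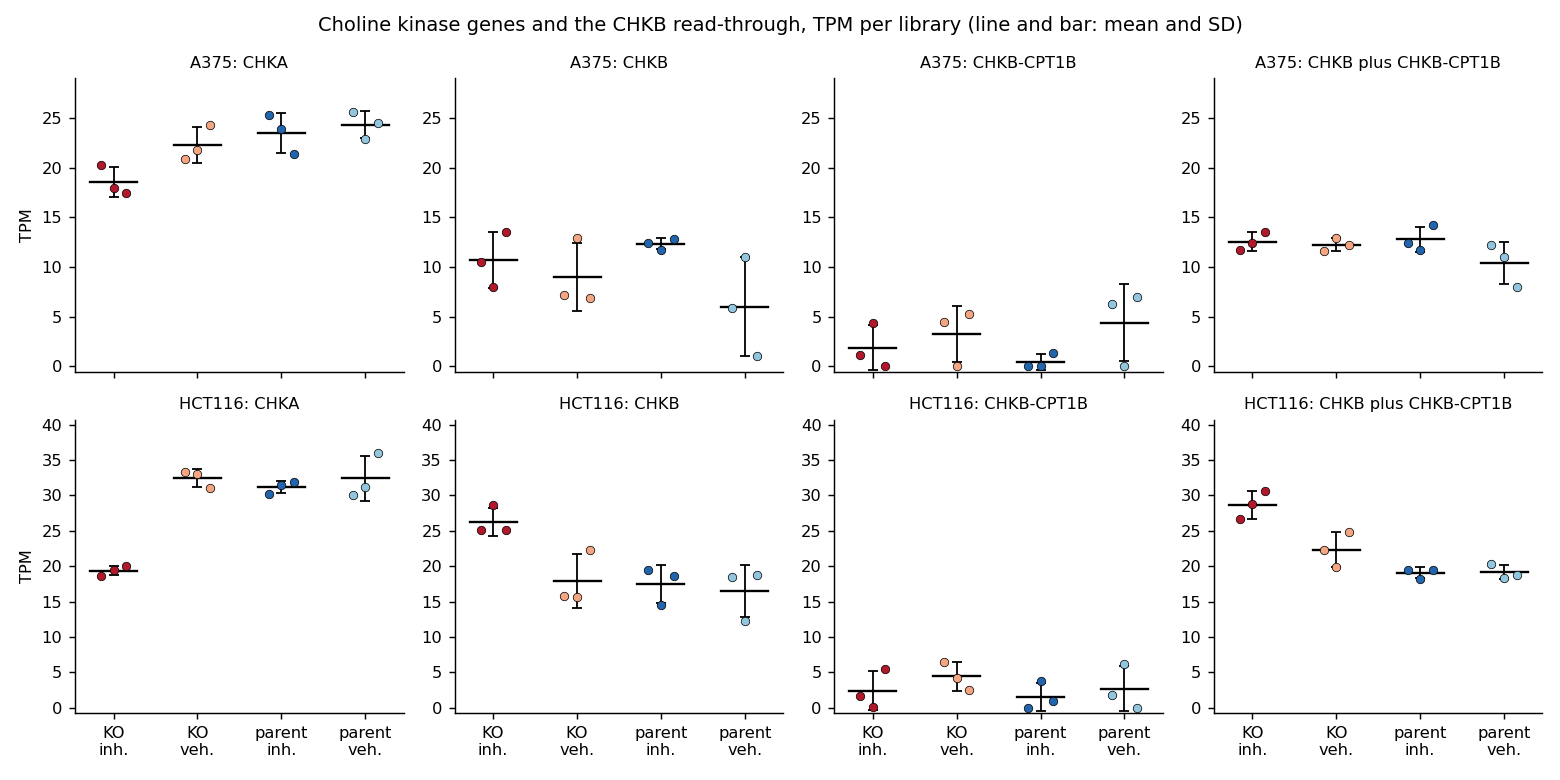
TPM of CHKA, CHKB, the read-through CHKB-CPT1B and the sum of the last pair, per library (points) with group mean and SD (n = 3), in A375 (upper row) and HCT116 (lower row). CHKA is at most 20.0 TPM in the HCT116 knockout with inhibitor and at least 30.1 TPM in the other HCT116 groups, and in 5 of the 8 groups the library lowest in CHKB is the highest in the read-through.

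The cytidylyl transferases differed from each other in level more than in response. PCYT1A, the main enzyme of the step, was at 50.1, 45.6 and 46.9 TPM in the A375 knockout with inhibitor, against 39.55, 41.2 and 42.2 TPM with vehicle. The groups did not overlap, and PCYT1A rose by 0.18 ± 0.071 (edgeR, adjusted p = 0.03781). That call was lost with DESeq2 and in 4 of the 6 fits that left out a library of the comparison, with adjusted p up to 0.1405. In the A375 parent the inhibitor libraries were the lower, at 43.9, 39.85 and 42.9 TPM, against 47.55, 49.8 and 45.5 TPM with vehicle, and the difference did not pass. Less the parent effect, the knockout effect was 0.34 ± 0.102 (edgeR, adjusted p = 0.00879) and was called in every alternative run for it. In HCT116 PCYT1A stayed between 31.5 and 43.0 TPM in all 12 libraries, and the inhibitor effect in the knockout was -0.02 ± 0.088 on the log2 scale. The difference between the knockouts, A375 minus HCT116, was 0.20 ± 0.113 and did not pass (edgeR, adjusted p = 0.218).

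PCYT1B, the second cytidylyl transferase, known mainly from brain and gonads, was at 0 counts in all 12 HCT116 libraries. In the 12 A375 libraries it had 26 to 59 counts with a median of 43.5. With a floor of 3 counts over each HCT116 group, it was at least 50.2-fold higher in A375 than in HCT116 for the parents with vehicle, and at least 26.3-fold higher for the knockouts with inhibitor. Even in A375 it was far below PCYT1A, with 1.85, 1.70 and 2.15 TPM in the parent with vehicle. The A375 knockout had 1.02, 1.62 and 1.52 TPM with inhibitor and 1.03, 1.27 and 1.77 TPM with vehicle, and no comparison of PCYT1B within A375 passed the test.

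CHPT1, which completes the pathway in the Golgi, showed the largest called difference of the 8 genes for genotype, in HCT116, and the largest fitted between the lines among the 7 that both lines expressed. In A375, genotype did not pass. CHPT1 was at 122.5, 109.8 and 122.3 TPM in the A375 knockout with vehicle, against 116.0, 112.1 and 106.5 TPM in the parent. Those groups overlapped, and the log2 difference was 0.13 ± 0.051 (edgeR, adjusted p = 0.07631), which passed without knockout vehicle replicate 2, the lowest of its group. With inhibitor it was at 134.4, 120.9 and 128.6 TPM in the A375 knockout (log2 fold change 0.08 ± 0.048, not called). CHPT1 held between 79.1% and 84.0% of its sum with CEPT1 in every A375 library.

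In HCT116 with vehicle CHPT1 was at 14.6, 14.6 and 13.9 TPM in the knockout, against 26.3, 24.8 and 23.9 TPM in the parent. The groups were far apart, and CHPT1 fell by 0.78 ± 0.110 on the log2 scale (edgeR, adjusted p = 5.629e-08). With inhibitor the HCT116 knockout was again low, at 14.1, 12.9 and 12.7 TPM, and the parent was at 28.2, 24.5 and 29.4 TPM. Neither inhibitor effect in HCT116 passed the test, with -0.11 ± 0.131 in the knockout and 0.14 ± 0.099 in the parent. The summed TPM of CHPT1 and CEPT1 was 52.3 ± 1.11 in the HCT116 knockout with vehicle and 66.7 ± 0.418 in the parent (SD, n = 3 each). CHPT1 made up 27.5 ± 0.917% of that sum in the knockout and 37.5 ± 2.0% in the parent with vehicle. The parent with inhibitor was at 42.2 ± 1.84%, also with no overlap with the parent with vehicle (two-sided exact permutation p = 0.1 for the log2 ratio, the smallest possible). Whether the genotype difference itself differed between the lines was not tested.

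PEMT, the methyltransferase of the second route, did not pass any test of inhibitor or genotype. It was at 76.7, 71.4 and 71.0 TPM in the A375 knockout with inhibitor, against 69.9, 78.7 and 56.2 TPM with vehicle, and the groups overlapped. The log2 effect of the inhibitor was 0.08 ± 0.083 in the A375 knockout and 0.02 ± 0.104 in the HCT116 knockout. For genotype in A375 the difference was 0.17 ± 0.089 and did not pass (edgeR, adjusted p = 0.202). It did pass without knockout vehicle replicate 3, the lowest of its group, at 0.29 (adjusted p = 0.01829). In HCT116 the 12 libraries lay between 33.0 and 41.9 TPM.

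The lines themselves differed at every step. Between the parents in vehicle, edgeR called all 8 genes, 5 higher and 3 lower in A375, but 81.8% of all genes were called in that comparison, so the count says little of these genes. CHPT1 was higher in A375 by 2.21 ± 0.069 (adjusted p = 4.095e-51) and PEMT by 0.82 ± 0.096 (adjusted p = 6.977e-13) on the log2 scale. SLC44A1 and PCYT1A were higher in A375 by 0.32 ± 0.047 and 0.28 ± 0.077, and the fifth was PCYT1B. PCYT1B had 0 counts in every HCT116 library and passed the filter through the A375 groups alone. Its call was therefore given by the filter and adds no evidence. SLC44A2 was lower in A375 by a log2 difference of -0.70 ± 0.055 and CHKA by -0.35 ± 0.076. CHKB was at -1.43 ± 0.396 (edgeR, adjusted p = 0.003226), a call that was lost when its counts were summed with the read-through (-0.34, adjusted p = 0.2135) and with only the 6 libraries compared (-1.42, adjusted p = 0.09811).

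**Figure D4:**
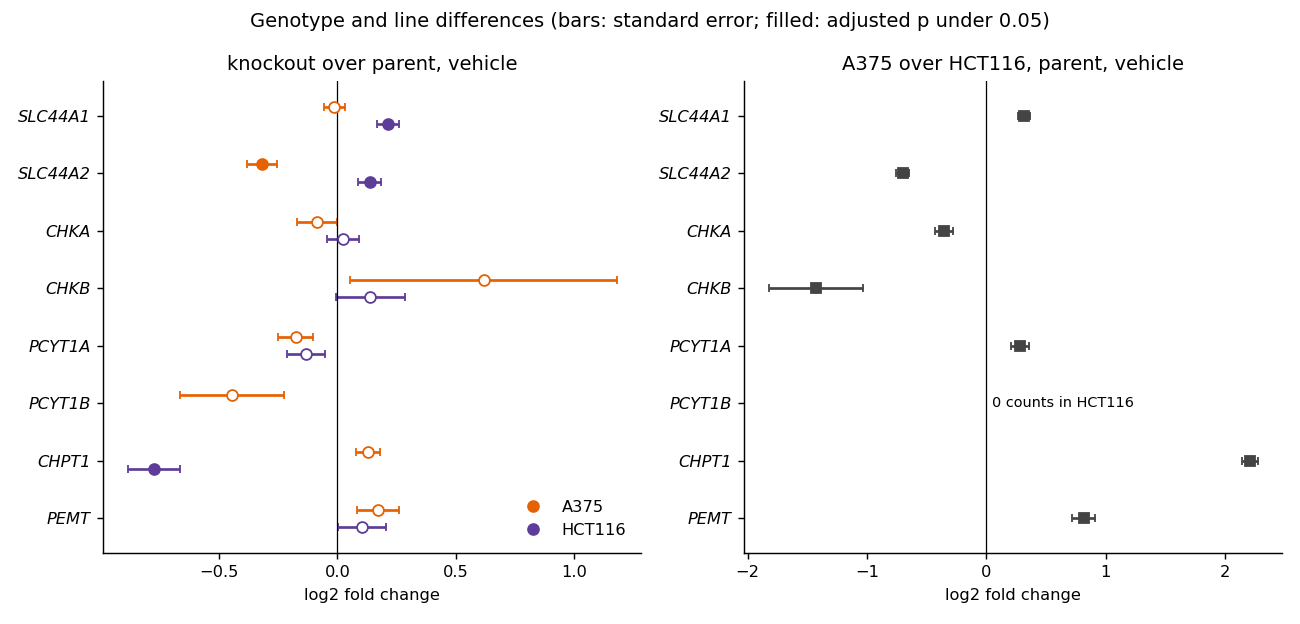
Left, log2 fold change of each gene, knockout over parent in vehicle, with its standard error, in A375 (orange) and HCT116 (purple). Right, A375 over HCT116 for the parents in vehicle, where filled points passed the test in both panels; CHPT1 lies at -0.78 for the HCT116 knockout and at 2.21 between the lines, the largest of the points that passed in each panel, and PCYT1B, at 0 counts in HCT116, has no point in the right panel.

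Around these 8 genes, 57 other genes of phosphatidylcholine metabolism were listed by role. With the inhibitor, 11 rose and 5 fell of the 43 tested in the A375 knockout, and 8 rose and 9 fell of the 48 tested in the HCT116 knockout. Their median log2 fold changes were 0.07 and 0.01. These counts amount to about the same share of genes as over the whole fits, where 37.5% and 37.1% were called.

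Of the other choline transporters edgeR called 0 of the 3 tested in the A375 knockout, where 37.5% of all genes were called. It called 0 of the 4 in the HCT116 knockout, where 37.1% were called, and 0 in each had an unadjusted p under 0.05. With so few genes, these counts say little of the transporters as a set. FLVCR1, a choline carrier of the plasma membrane, had a log2 fold change of -0.11 ± 0.056 in the A375 knockout and -0.05 ± 0.074 in the HCT116 knockout. FLVCR2, which carries choline at the blood-brain barrier, had 0.88 ± 0.475 and 0.31 ± 0.319. CEPT1 was at -0.09 ± 0.080 in the A375 knockout and -0.01 ± 0.071 in the HCT116 knockout and did not pass. The terminal step of the pathway therefore had no call for the inhibitor in either line.

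Other genes were listed for the methylation route of PEMT, with its methyl supply and relatives of those enzymes. Of them, 2 rose and 1 fell of the 5 tested in the A375 knockout, where 37.5% of all genes were called. MAT2A, which makes S-adenosylmethionine, averaged 312.0 ± 8.17 TPM in the A375 knockout with inhibitor and 397.0 ± 10.8 TPM with vehicle (SD, n = 3 each). It fell by 0.38 ± 0.029 (edgeR, adjusted p = 2.936e-17). In the A375 parent MAT2A averaged 364.4 ± 9.14 TPM with inhibitor and 355.9 ± 9.35 TPM with vehicle. With vehicle, MAT2A was called higher in that knockout than in the parent. Its regulatory partner MAT2B rose by 0.16 ± 0.046 (edgeR, adjusted p = 0.004663), a call lost without knockout vehicle replicate 3. AHCYL2, a relative of the enzyme that clears S-adenosylhomocysteine, rose by 0.30 ± 0.098 (edgeR, adjusted p = 0.01172), which did not pass by DESeq2 or without knockout vehicle replicate 3 or knockout inhibitor replicate 2 (adjusted p up to 0.05861). For the HCT116 knockout edgeR called 0 of the 7 tested genes of this list, where 37.1% of all genes were called. Of those 7, 2 had an unadjusted p under 0.05, and MAT2A was at -0.05 ± 0.033 and called in no alternative. The difference for MAT2A between the knockouts, A375 minus HCT116, was called at -0.32.

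In the parallel CDP-ethanolamine route 2 genes rose and 1 fell of 4 tested in the A375 knockout, where 37.5% of all genes were called. In the HCT116 knockout 0 rose and 2 fell of 4, where 37.1% were called. With so few genes, these counts say little of the route as a set. SELENOI, an ethanolamine phosphotransferase of the last step of that route, moved in opposite directions in the knockouts. In the A375 knockout it averaged 52.2 ± 1.45 TPM with inhibitor and 39.1 ± 1.62 TPM with vehicle, and rose by 0.39 ± 0.036 (edgeR, adjusted p = 5.885e-14). In the HCT116 knockout it averaged 40.45 ± 1.99 TPM with inhibitor and 44.2 ± 2.96 TPM with vehicle, and fell by 0.13 ± 0.042 (edgeR, adjusted p = 0.01125), a call lost without knockout vehicle replicate 3 or knockout inhibitor replicate 1. For SELENOI in HCT116, knockout minus parent was not called in the main fit, though it was in 6 of 21 alternatives. Between the knockouts, A375 minus HCT116 was 0.52 for SELENOI and was called. PCYT2, the cytidylyl transferase of that route, rose by 0.26 ± 0.079 in the A375 knockout (edgeR, adjusted p = 0.00738), a call lost without knockout vehicle replicate 3. ETNK2, an ethanolamine kinase, fell by 0.37 ± 0.103 there (edgeR, adjusted p = 0.003218).

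Among enzymes that break phosphatidylcholine down, 4 rose and 1 fell of 16 tested in the A375 knockout, and 5 rose and 3 fell of 18 tested in the HCT116 knockout, against 37.5% and 37.1% of all genes called in either direction, and both counts lie near those shares. The largest called change of the listed genes in the HCT116 knockout was that of PNPLA8. PNPLA8, a phospholipase of mitochondria and peroxisomes, averaged 20.1 ± 0.340 TPM in the A375 knockout with inhibitor and 13.4 ± 0.700 TPM with vehicle, and 18.7 ± 0.492 TPM in the HCT116 knockout with inhibitor and 8.47 ± 0.223 TPM with vehicle (SD, n = 3 each). It rose in both, by 0.55 ± 0.069 in A375 (edgeR, adjusted p = 1.281e-09) and by 1.12 ± 0.084 in HCT116 (edgeR, adjusted p = 3.477e-18). GPCPD1, which frees choline from glycerophosphocholine, rose by 0.70 ± 0.070 in the HCT116 knockout (edgeR, adjusted p = 5.616e-13), with 0.13 ± 0.085 in the A375 knockout. LPCAT1, an acyltransferase that makes phosphatidylcholine from lysophosphatidylcholine, rose by 0.65 ± 0.038 in the A375 knockout (edgeR, adjusted p = 2.82e-22) and fell by 0.18 ± 0.046 in the HCT116 knockout (edgeR, adjusted p = 0.0008641). In the A375 knockout, PTDSS2 and GDPD1 had the largest called values of the listed genes, both at 0.89. GDPD1, a phosphodiesterase, was named after its values were seen. The PTDSS2 call was lost in 6 of 16 alternatives, DESeq2 and limma-voom among them.

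STARD7, which carries phosphatidylcholine to mitochondria, fell in both knockouts, by 0.18 ± 0.038 in A375 (edgeR, adjusted p = 0.0001612) and by 0.20 ± 0.034 in HCT116 (edgeR, adjusted p = 2.115e-06). SGMS2, a sphingomyelin synthase that uses phosphatidylcholine, rose by 0.52 ± 0.200 in the A375 knockout (edgeR, adjusted p = 0.03385) and fell by 0.29 ± 0.073 in the HCT116 knockout (edgeR, adjusted p = 0.0008902). The A375 call for SGMS2 was lost in 6 of 16 alternatives, DESeq2 and limma-voom among them. SGMS2 was a low RNA in the A375 knockout, averaging 1.69 ± 0.200 TPM with inhibitor and 1.16 ± 0.100 TPM with vehicle (SD, n = 3 each). With vehicle, SGMS2 was called lower in that knockout than in the A375 parent, which averaged 1.98 ± 0.161 TPM.

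The RNAs that varied most like each gene called with the inhibitor were found by Pearson's r of log2 CPM (counts per 1000000) over the 24 libraries, with the mean of each line taken off, among 9129 genes. For CHKA they were AHSA1 at 0.934, EXOSC4 at 0.926 and RPUSD1 at 0.926. AHSA1, a co-chaperone of HSP90, had an r of 0.847 within A375 and 0.965 within HCT116. For SLC44A2 they were NES at 0.970, MDK at 0.896 and NIPSNAP1 at 0.890, and for SLC44A1 they included FZD1 at 0.925 and ICAM1 at 0.924. PCYT1A had weaker neighbours, with APEH at 0.727, RTKN at 0.704 and BPNT1 at 0.701. These values are descriptions over libraries that share the same 8 groups. CHKB averaged under 8 CPM in a line and was not compared.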

How the data were processed

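RNA was sequenced from poly(A)-selected libraries made with an NEBNext Ultra kit, per the labels' protocols. The submitters' processing notes name STAR 2.4.2a, RSEM 1.2.23 and the build hg19. The sources used here give neither the annotation release nor the strand setting, so reads of overlapping antisense genes cannot be told apart. The deposited expected counts, per the file headers, are RSEM estimates per gene. TPM and FPKM columns were deposited beside them, both scaled for length and depth. FPKM, as deposited, was not used. The deposited length column is the mean transcript length weighted by isoform. Of 25343 genes, 25220 were matched to a symbol through a RefSeq table, and the other 123 took no more than 0.0724% of any library's counts.

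Expected counts were rounded to whole numbers, scaled by TMM and kept by edgeR's expression filter (minimum count 10, minimum total 15). The 12 libraries of each line, or all 24 for contrasts between lines, were fitted with a mean per group in edgeR 4.0.16 (R 4.3.3) by the two-sided robust quasi-likelihood test, adjusted over all genes tested. A standard error is the log2 fold change divided by the square root of F. Ratios used TPM plus 0.1 and an exact permutation test. The fits were tested on simulated data. The labels do not say that the libraries came from separate cultures, so the p-values cover only the spread among libraries, which may be technical. No pair of libraries in a group was identical, and each differed by more than sampling noise. Replicate numbers did not pair the libraries (correlations of deviations from -0.025 to 0.122).

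The 8 genes and the pathway lists were chosen with earlier results of these data known. Named besides the 8 were PTDSS1 and PTDSS2 and, from each list, up to 3 genes with the smallest adjusted p for the inhibitor in a knockout. For each member called there, the 3 most alike genes with at least 8 CPM in both lines were named. The alternatives changed the scaling (DESeq2 size factors, or library size alone), the filter (none, or a mean of 5 CPM), the tool (limma-voom from limma 3.58.1, or DESeq2 1.42.0), the libraries fitted (other sets, or each left out) and the design (a replicate block), and, added after seeing the data, CHKB summed with CHKB-CPT1B. One gene among those that varied most like SLC44A1 is not reported here.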

Additional observations from a re-analysis of the deposited data

Results flagged for a closer look

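The values here are differences between inhibitor effects, on the log2 scale, that passed edgeR's test of the difference itself. Between knockout and parent in HCT116, the effect on CHKA differed by -0.70 and that on SLC44A2 by 0.36. Between knockout and parent in A375, the effect on PCYT1A differed by 0.34 and that on SLC44A1 by 0.29. Between the knockouts, A375 minus HCT116, the differences were 0.45 for CHKA, 0.28 for SLC44A1 and -0.40 for SLC44A2.

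Among the other genes of phosphatidylcholine metabolism, knockout minus parent in A375 gave 2.23 for FLVCR2, -0.43 for MAT2A, 0.38 for SELENOI and 0.38 for PCYT2. FLVCR2 was a low RNA, averaging 0.56 ± 0.176 TPM with inhibitor and 0.337 ± 0.202 TPM with vehicle in the A375 knockout, and 0.347 ± 0.0751 TPM with inhibitor and 0.87 ± 0.26 TPM with vehicle in the A375 parent (SD, n = 3 each). Its difference sets 0.88 in the knockout against -1.35 in the parent, neither of which was called. The call for PCYT2 was lost without parent vehicle replicate 2 and without parent inhibitor replicate 3 (adjusted p up to 0.0531). The same difference in A375 was -0.15 for PTDSS1, 0.91 for PTDSS2, 0.68 for LPCAT1, 0.66 for PNPLA8 and -0.21 for STARD7. Of these, the call for PTDSS1 was lost in 12 of 21 alternatives, among them DESeq2, limma-voom, DESeq2 size factors and library size alone (adjusted p up to 0.2706), and that for PTDSS2 in 8 of 21 (adjusted p up to 0.1421). In HCT116 it was -0.49 for PTDSS1, 0.35 for PISD, -0.27 for LPCAT1, 1.08 for PNPLA8 and 0.67 for GPCPD1. It was -0.29 for LYPLA2, -0.20 for STARD7 and -0.29 for SGMS2 in HCT116, where the call for SGMS2 was lost in 4 of 21 alternatives, DESeq2 among them.

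The inhibitor effect in the A375 knockout minus that in the HCT116 knockout was -0.32 for MAT2A, 0.38 for AHCYL2, 0.52 for SELENOI, -0.42 for ETNK2 and 0.34 for PTDSS1. It was -0.37 for PISD, 1.07 for PTDSS2, 0.84 for LPCAT1, -0.59 for MBOAT2 and -0.56 for PNPLA8. The values were -0.56 for GPCPD1, 0.25 for LYPLA2 and 0.82 for SGMS2. PTDSS2 had 7 to 21 counts in the A375 knockout libraries of these comparisons. The calls between the knockouts were lost for AHCYL2 in 9 of 20 alternatives, for ETNK2 in 10 of 20 and for PTDSS2 in 8 of 20, with limma-voom among them in each case and DESeq2 for AHCYL2 and ETNK2.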

How the results depend on the processing

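Of 76 results for the 8 genes, 25 were called, 20 of them in every alternative, and 46 of the 51 not called were called in no alternative. Among the 25 was PCYT1B between the lines, a call that was given by the filter. No called result reversed in sign. Some results not called did change sign. For example, CHKB with inhibitor in the A375 parent ran from -0.391 to 1.832 on the log2 scale over the alternatives. The calls that were lost are given beside the values of SLC44A2, CHKA, CHKB and PCYT1A. CHKB in the HCT116 knockout was also lost in a fit of all 24 libraries (adjusted p = 0.1896). Some effects were gained: CHKB for HCT116 knockout minus parent in 3 of 21 alternatives, CHKA for A375 knockout minus parent in 2 of 21, and PCYT1A for genotype in A375 with library size alone, which made 2 of the 8 genes called there against 1. Leaving out a library gave 1 to 2 in that comparison. Over all genes, the HCT116 parent had 0 calls for the inhibitor, and 4 with no filter, 1 with DESeq2, 1 with a replicate block, 4 with only the 6 libraries compared and 0 to 2 with a library left out. In the A375 parent the 14 calls became 9 to 15 with a library left out. For genotype DESeq2 called 1371 genes against 2196 in A375 and 1798 against 2804 in HCT116. A replicate block changed no call for the 8 genes. The cause of these shifts was not tested. With 3 libraries a group, and 26 to 59 counts for PCYT1B, small changes of low RNAs were not detectable.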
